A study of Mus musculus with 14 samples.

Results

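Cholesterol and fatty acid synthesis was examined in spleen T cells through 32 genes, which encode sterol and fatty acid enzymes, the SREBP control system and cholesterol exporters. The genes were chosen by symbol, and all 32 were found among the 24091 genes of the deposited table. T cells (200000 per sample) were sorted from 8 mice with a chronic phase model of chronic myeloid leukemia (CP CML, Mir142+/+BCR-ABL) and 6 mice with a blast crisis model (BC CML, Mir142-/-BCR-ABL), and poly(A) RNA of each mouse was sequenced as its own library. Both groups carry the BCR-ABL transgene on a C57Bl/6j background, with expression driven by SCLtTA, a tetracycline-repressed activator placed under control elements of the stem cell gene Scl. In both, BCR-ABL was induced for 3 weeks by withdrawal of tetracycline (tet-off) and no treatment was given, so the labelled difference between the groups is the deletion of Mir142, and no group without BCR-ABL was compared here. Mice of the study were male and female and between 6 and 10 weeks old, and the sex of each mouse was not used. The sample descriptions of CP CML mice share a number and those of BC CML mice share a different number. What these numbers mark is not given in the sources used here, and it cannot be told apart from the genotype.

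Cells build cholesterol from acetyl-CoA through mevalonate, isoprenoids and squalene, and build fatty acids from the same precursor through malonyl-CoA. Both routes are governed by the SREBP transcription factors, which are held in the endoplasmic reticulum by SCAP and INSIG when sterols are plentiful and are released to the nucleus when sterols are scarce. Activated T cells are known to raise SREBP activity to supply membranes for division, whereas sterol-laden cells activate the LXR receptors, which induce the exporters ABCA1 and ABCG1.

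Among the 32 genes, BC CML mice had higher levels of 8 and lower levels of 15, and 9 did not pass the test (edgeR's quasi-likelihood test, Benjamini-Hochberg adjusted p below 0.05 over 12248 genes tested). The difference between these groups was broad, and 65.2% of all genes tested were called, 32.6% higher and 32.7% lower, a share close to the 71.9% called among the 32. In 10 of the 32 (31.2%) the values of the 2 groups did not overlap, against 36.9% of all genes tested. Their median log2 fold change (BC CML relative to CP CML) was -0.16, against -0.01 over all genes tested, and the median size of the change was 0.24, against 0.28. Only Scd1 and Scd2 (6.25%) changed by 1 or more on the log2 scale, against 13% of all genes tested. The pattern was therefore made of a few large rises among many small changes in both directions. The desaturase genes Scd1 and Scd2, the exporter genes Abca1 and Abcg1 and the retention gene Insig2 were higher in BC CML, whereas Srebf2, Insig1, Stard4, Acly, Hsd17b7 and Dhcr7 were lower with no overlap between groups.

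**Figure D1:**
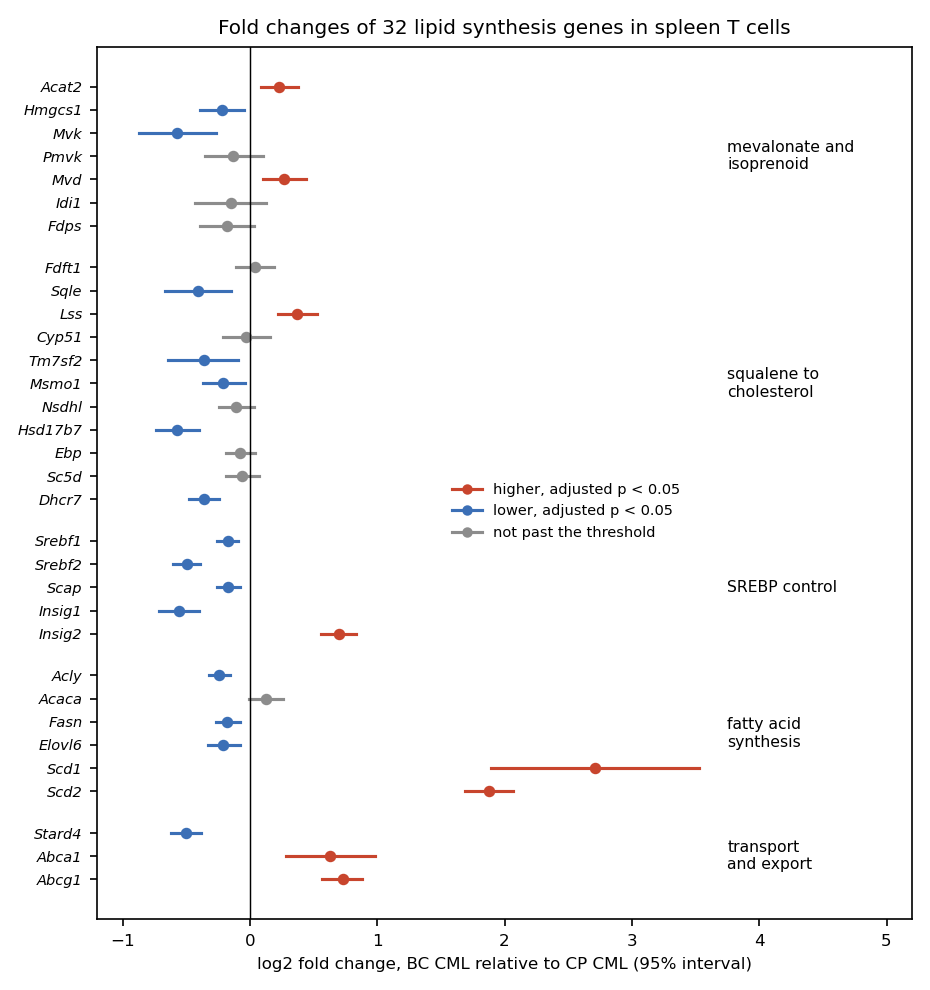
Each point is the log2 fold change of a gene in spleen T cells of BC CML mice (n = 6) relative to CP CML mice (n = 8), with its 95% interval, grouped by role and coloured by direction where the adjusted p was below 0.05. Scd1 (2.71) and Scd2 (1.88) lie apart from the other 30 genes, which lie between -0.57 and 0.73.

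The libraries held between 15703702 and 19914531 counted reads per mouse. Mir142 itself had between 302 and 650 reads in each CP CML mouse and 0 in each BC CML mouse. Markers of T cells were abundant in every library, with a summed level of 11 genes between 4216 and 4837 CPM (read counts normalized to library size by the TMM method) in CP CML and between 5201 and 5487 in BC CML. The sorted populations differed in other markers, and the part of these differences in the results was not tested except where a fit with them is given. Of the 11 T cell genes 5 were higher, 2 were lower and 4 did not pass the test. Among them Cd3g was higher (log2 fold change 0.59) and Cd247 lower (-0.32). Cd4 was lower (-0.73) and Cd8a higher (0.87), while Cd8b1, which encodes the partner chain of CD8α, had an estimate of 0.07 (95% interval -0.06 to 0.20, adjusted p = 0.352). The 5 naive T cell genes were all lower in BC CML, and their sum lay between 4244 and 5575 CPM in CP CML and between 2259 and 3358 in BC CML. Of 12 myeloid genes 11 were higher, with sums of 75.8 to 727.6 and 839.1 to 2210 CPM. Of 7 B cell genes 5 were higher, with sums of 58.9 to 174.0 and 99.8 to 490.7 CPM, and of 4 dendritic cell genes tested 3 were higher, with sums over 6 genes of 7.37 to 19.9 and 32.6 to 118.8 CPM. Only Elane (1 mouse), Siglech (4 mice), Klf1 (3 mice) and Car1 (1 mouse) among all markers examined were at 0 in any library, and those mice were all CP CML. The 10 proliferation genes included 1 that was lower (Pcna) and 9 that did not pass the test. In sorted bulk samples, fewer cells that express a gene cannot be told apart from less RNA of that gene per cell.

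Because the groups differ in miR-142, its mature arms are shown with their seed, bases 2 to 8, in capitals (RefSeq sequences on GRCm38.p6).
mmu-miR-142a-5p: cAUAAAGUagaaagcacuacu
mmu-miR-142a-3p: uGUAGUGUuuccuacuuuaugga
A full 8-base match (the complement of the seed followed by an A) in the longest annotated 3′UTR (GENCODE vM21) was found in 3 of the 32 genes. These 4 matches are shown in capitals within 30 bases of the transcript strand.
Abca1, match to the 3p arm, chr4:53033015-53033022, minus strand: acaagatgggtACACTACAccttgagatcc
Abca1, match to the 5p arm, chr4:53030860-53030867, minus strand: tattgtgaataACTTTATAtgacgtgtttt
Fdft1, match to the 3p arm, chr14:63145658-63145665, minus strand: tgtgagaaatgACACTACAgtagagagagg
Hmgcs1, match to the 5p arm, chr13:119706721-119706728, plus strand: ggctctgtagaACTTTATAcctctctggat
The 2 matches of Abca1 lie at bases 921 to 928 and 3076 to 3083 of its 3156-base 3′UTR. Matches to the 3p arm were in 2 of the 32 genes (6.25%, against 3.04% of 11509 genes tested with a 3′UTR), and matches to the 5p arm were in 2 (6.25%, against 5.22%). With shorter matches of 7 bases included, 3 genes matched the 3p arm (9.38%, against 12.1%) and 9 the 5p arm (28.1%, against 23.5%). The 3 genes with an 8-base match did not move together, since Abca1 was higher, Hmgcs1 lower and Fdft1 not past the test. Scd1, Srebf2, Insig1 and Acly had no match of either length to either arm, and Scd2 and Insig2 each had 1 of 7 bases.

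The SREBP control genes contained the clearest opposite pair of the set. The promoters of that pair, of Srebf2 and of the enzyme gene Hsd17b7 are shown with matches to CCAAT and CACGTG marked. In Srebf2 and Insig2 only CCAAT was matched, and binding of SREBPs to the marked stretches was not tested. Each runs from 250 bases before to 50 after the annotated start (RefSeq, GRCm38.p6), read in the direction of transcription. Capitals mark the NF-Y box CCAAT and the E-box CACGTG on either strand (the former reads ATTGG on the other strand), and no match of 1 motif overlaps a match of the other.
Srebf2, chr15:82147019-82147318, plus strand: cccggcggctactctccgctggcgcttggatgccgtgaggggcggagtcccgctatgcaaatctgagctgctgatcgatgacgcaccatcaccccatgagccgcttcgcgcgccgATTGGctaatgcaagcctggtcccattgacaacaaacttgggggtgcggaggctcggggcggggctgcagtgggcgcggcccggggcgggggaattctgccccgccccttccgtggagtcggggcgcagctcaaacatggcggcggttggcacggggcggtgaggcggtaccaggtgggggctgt
Insig1, chr5:28071162-28071461, plus strand: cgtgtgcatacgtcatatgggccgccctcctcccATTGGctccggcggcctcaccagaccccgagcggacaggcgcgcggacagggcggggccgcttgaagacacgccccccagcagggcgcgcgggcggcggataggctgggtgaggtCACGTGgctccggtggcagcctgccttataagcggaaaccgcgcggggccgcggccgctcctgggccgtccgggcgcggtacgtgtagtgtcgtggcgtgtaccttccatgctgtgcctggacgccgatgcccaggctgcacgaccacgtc
Insig2, chr1:121332540-121332839, minus strand: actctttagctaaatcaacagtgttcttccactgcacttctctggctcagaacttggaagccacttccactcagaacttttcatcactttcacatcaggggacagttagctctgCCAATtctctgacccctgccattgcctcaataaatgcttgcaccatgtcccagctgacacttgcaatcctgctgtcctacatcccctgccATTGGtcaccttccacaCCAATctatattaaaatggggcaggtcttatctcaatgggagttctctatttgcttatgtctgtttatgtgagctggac
Hsd17b7, chr1:169969156-169969455, minus strand: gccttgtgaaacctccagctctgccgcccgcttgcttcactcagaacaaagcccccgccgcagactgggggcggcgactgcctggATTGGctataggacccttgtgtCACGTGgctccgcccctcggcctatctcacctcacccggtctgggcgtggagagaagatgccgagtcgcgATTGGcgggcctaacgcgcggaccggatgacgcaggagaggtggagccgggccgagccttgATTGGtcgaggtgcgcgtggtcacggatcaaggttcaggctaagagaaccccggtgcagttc
Promoters were matched for 25 of the 32 genes, with that of Acaca at a start 65766 bases from the 5′ end of its deposited position. CCAAT was present in 18 of these 25 (72%), against 38.8% of 17453 promoters of the same length, and CACGTG in 5 (20%), against 8.21%. These 17453 belong to genes of the deposited table whether tested or not, whereas the 3′UTR shares used tested genes only. The share among promoters of tested genes was not computed. The classical sterol regulatory element, searched as TCACNCCAC on both strands, was present in Hmgcs1 alone (4%, against 1.19%). None of the promoters shown above held this element. Both directions of change were represented among promoters with CCAAT, as Insig2 with 3 matches and Lss with 1 were higher and Hsd17b7 with 3 and Mvk with 5 were lower. The promoter of Dhcr7, which was also lower, held none of the 3 motifs.

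SREBP2, encoded by Srebf2 (chr15:82147269-82204960 in the mm10 coordinates of the table), is the SREBP that mainly drives cholesterol synthesis genes. Srebf2 levels were 169.4, 180.6 and 187.6 CPM in the lowest, median and highest CP CML mouse and 112.1, 127.0 and 149.8 CPM in BC CML. The 2 groups did not overlap, and the log2 fold change was -0.49 (SE 0.05, adjusted p = 1.7e-07). Srebf1, whose product SREBP1 mainly drives fatty acid synthesis genes, had 76.7, 81.8 and 88.6 CPM in CP CML and 69.5, 72.9 and 77.4 CPM in BC CML. The groups overlapped through BC CML mouse 3, and the difference was smaller (log2 fold change -0.17, SE 0.04, adjusted p = 0.00107). Scap, which encodes the escort that carries SREBPs to the Golgi, was lower by a similar amount (-0.17, SE 0.04, adjusted p = 0.0015), with 5 of 6 BC CML mice below every CP CML mouse.

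INSIG1 and INSIG2 are the related endoplasmic reticulum proteins that hold SCAP back, and the Insig1 gene is itself induced by SREBPs. Insig1 (chr5:28071412-28078662) had 28, 32.9 and 37.8 CPM in the lowest, median and highest CP CML mouse and 19.4, 21.8 and 25.7 CPM in BC CML. Insig2 (chr1:121304353-121332589) went the other way, from 17.7, 20.7 and 25 CPM to 32.4, 33.3 and 37.2 CPM. Neither gene overlapped between groups, and the log2 fold changes were -0.56 (SE 0.07, adjusted p = 3.7e-06) for Insig1 and 0.70 (SE 0.06, adjusted p = 3.6e-08) for Insig2. The ratio of Insig1 to Insig2 CPM was between 1.32 and 1.85 in the 8 CP CML mice and between 0.541 and 0.727 in the 6 BC CML mice, so the more abundant of the pair by reads was Insig1 in every CP CML mouse and Insig2 in every BC CML mouse. Per transcript length, the mean level of Insig1 was 12.3 RPKM (CPM per kilobase of gene length) in CP CML and 8.34 RPKM in BC CML, and that of Insig2 was 7.1 and 11.5 RPKM. This ratio was chosen after the values had been seen.

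**Figure D2:**
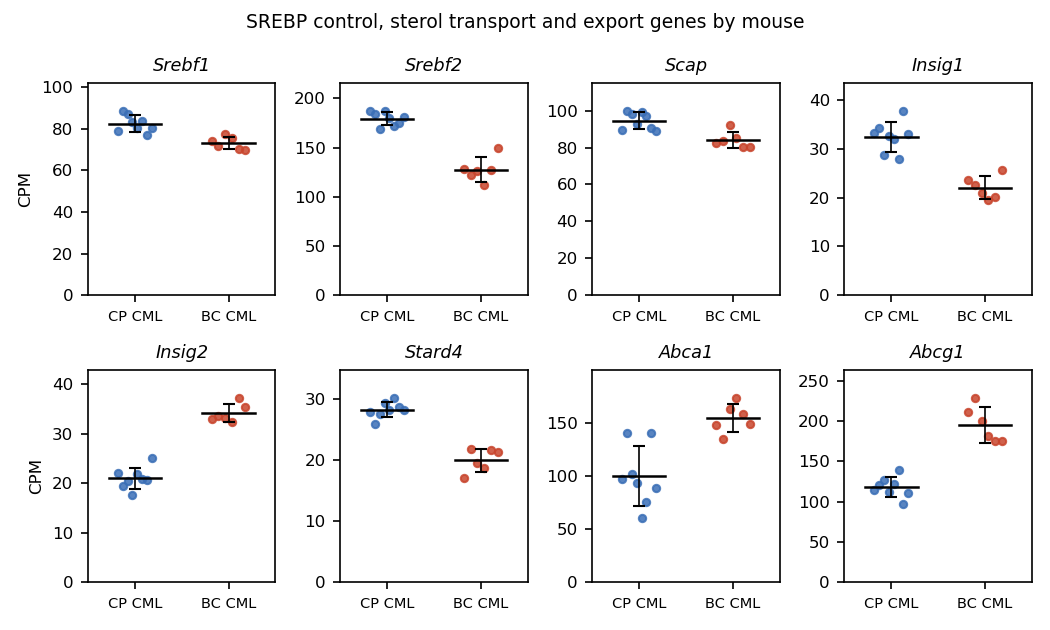
Normalized read counts (CPM) of SREBP control, sterol transport and export genes are shown with 1 point per mouse, the mean (line) and SD (bars) of CP CML (n = 8) and BC CML (n = 6). Srebf2, Insig1 and Stard4 are lower and Insig2 and Abcg1 higher in BC CML with no overlap between groups, and 2 of the CP CML mice lie near 140 CPM for Abca1, within the range of BC CML (135.2 to 173.9 CPM).

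The 7 genes of the mevalonate and isoprenoid steps did not change as a block, with 2 higher, 2 lower and 3 that did not pass the test, and in none of them were the groups separated. Acat2, the cytosolic thiolase that joins acetyl-CoA units, was higher (17.9 to 21.1 CPM in CP CML, 19.9 to 27.4 CPM in BC CML, log2 fold change 0.23, SE 0.07, adjusted p = 0.00687). Mvd, which makes isopentenyl pyrophosphate, was also higher (0.27, SE 0.08, adjusted p = 0.00812). Mvk, the mevalonate kinase between them, was lower, with 5.51 to 8.37 CPM in CP CML and 3.35 to 6.14 CPM in BC CML (-0.57, SE 0.14, adjusted p = 0.00197). These levels rest on 88 to 167 and 64 to 117 reads per mouse, which is among the lowest depth of the set. Hmgcs1, which makes HMG-CoA, fell by 0.22 on the log2 scale (SE 0.08, adjusted p = 0.0217), and its call was lost without BC CML mouse 4 (adjusted p = 0.0514). For Pmvk, Idi1 and Fdps the estimates were -0.13 (95% interval -0.35 to 0.10), -0.15 (-0.43 to 0.13) and -0.18 (-0.39 to 0.03). Fdps passed the threshold without BC CML mouse 6 (-0.27, adjusted p = 0.0124), in which it was highest at 27 CPM against 22.7 CPM in the next mouse.

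Of the 11 genes between squalene and cholesterol, 1 was higher, 5 were lower and 5 did not pass the test. Hsd17b7, the 3-ketosteroid reductase of the C4 demethylation complex (chr1:169949537-169969205), had 10.9, 12.1 and 14.5 CPM in the lowest, median and highest CP CML mouse and 7.37, 8.44 and 9.18 CPM in BC CML. The groups did not overlap, and the log2 fold change of -0.57 (SE 0.08, adjusted p = 7.7e-06) was that of Mvk with a smaller error. Dhcr7, which reduces 7-dehydrocholesterol in the last step of one branch (chr7:143823167-143848410), had 24.1, 27.6 and 30.5 CPM in CP CML and 19.4, 21.5 and 22.7 CPM in BC CML, again with no overlap (-0.36, SE 0.06, adjusted p = 2.5e-05). Sqle, the squalene epoxidase and a rate-limiting enzyme, was lower (-0.41, SE 0.12, adjusted p = 0.00702), with 4 of 6 BC CML mice below every CP CML mouse. Tm7sf2, a sterol C14 reductase, was lower (-0.36, SE 0.13, adjusted p = 0.0207), as was Msmo1, the C4 methyl oxidase (-0.21, SE 0.08, adjusted p = 0.0271). The call of Tm7sf2 was lost without BC CML mouse 5 (adjusted p = 0.0521), and that of Msmo1 without CP CML mouse 8 or without any of BC CML mice 1 to 4 (adjusted p of 0.0522 to 0.0703).

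Lss, which closes the ring to lanosterol, was the only gene of this stretch that was higher, with 20.6, 23.9 and 28.1 CPM in CP CML and 27.7, 32.1 and 36.5 CPM in BC CML (0.37, SE 0.07, adjusted p = 2.1e-04). Its neighbours in the pathway did not share this direction, since Sqle before it was lower and Cyp51, the lanosterol demethylase after it, had an estimate of -0.03 (95% interval -0.21 to 0.16). The remaining estimates were 0.04 for Fdft1 (-0.11 to 0.19), -0.11 for Nsdhl (-0.24 to 0.03), -0.08 for Ebp (-0.19 to 0.04) and -0.06 for Sc5d (-0.19 to 0.07).

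**Figure D3:**
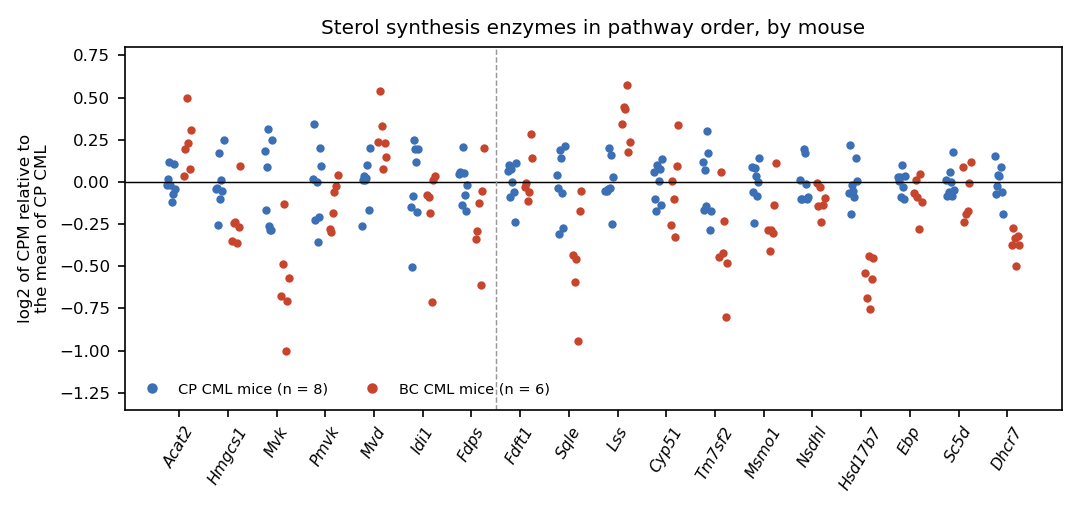
The 18 sterol enzyme genes are shown in pathway order, with 1 point per mouse for the log2 of its CPM relative to the mean of the CP CML mice. The dashed line separates mevalonate and isoprenoid genes from those between squalene and cholesterol. Hsd17b7 and Dhcr7 are the 2 genes whose groups do not overlap, and Acat2, Mvd and Lss are the 3 that were higher.

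Over the 18 sterol enzyme genes together, 3 were higher, 7 lower and 8 not past the test, with a median log2 fold change of -0.14. Their summed level was 360.9, 387.4 and 414.7 CPM in the lowest, median and highest CP CML mouse and 330.7, 362.3 and 403.3 CPM in BC CML, and the ratio of the medians was 0.935. These groups overlapped. Single mice were extreme for many of these genes. In BC CML, mouse 4 had the lowest value for 11 of the 18 genes and mouse 6 the highest for 8. In CP CML, mouse 3 had the lowest for 6 and mouse 8 the highest for 6. Over all 32 genes, BC CML mouse 4 was lowest for 16 and mouse 6 highest for 12. Shares over all genes tested were not computed. BC CML mouse 6 also had the highest summed myeloid (2210 CPM) and B cell (490.7 CPM) markers of its group. The part of these markers in its summed sterol level was not tested. Single genes were refitted without this mouse and with these markers as covariates.

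STARD4 carries cholesterol between membranes inside the cell, and its gene is induced by SREBP2. Stard4 had 26, 28.3 and 30.2 CPM in the lowest, median and highest CP CML mouse and 17.1, 20.4 and 21.8 CPM in BC CML, with no overlap (log2 fold change -0.50, SE 0.06, adjusted p = 8.3e-07). Stard4, Insig1, Srebf2, Hsd17b7 and Dhcr7 were thus the sterol genes that were lower with separated groups, by between 0.36 and 0.57 on the log2 scale.

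ABCA1 and ABCG1 move cholesterol out of the cell to lipid-poor apolipoprotein and to high density lipoprotein, and both genes are LXR targets. Abcg1 (chr17:31057694-31117981) had 97.6, 118.0 and 138.8 CPM in the lowest, median and highest CP CML mouse and 175.1, 190.6 and 228.7 CPM in BC CML. The groups did not overlap (log2 fold change 0.73, SE 0.07, adjusted p = 2.1e-07). Abca1 (chr4:53030789-53159895) had 60.4, 95.8 and 140.9 CPM in CP CML and 135.2, 154.0 and 173.9 CPM in BC CML (0.63, SE 0.16, adjusted p = 0.00348). The spread among CP CML mice was wide for Abca1, with a coefficient of variation of 28.3% against 10.4% for Abcg1, and the groups overlapped through CP CML mice 2 and 7 (140.9 and 140.5 CPM). Those 2 mice also had the highest summed naive T cell markers of CP CML (5282 and 5575 CPM). The mouse with the lowest Abca1, CP CML mouse 5, had the lowest sum of the group (4244 CPM). Between groups the naive sum went the other way, being lower in BC CML, where Abca1 was higher. The part of T cell subsets in these values was not tested.

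Of the 6 fatty acid synthesis genes, Acly, Fasn and Elovl6 were lower by small amounts, Scd1 and Scd2 were higher by large ones, and Acaca did not pass the test. Acly, which makes cytosolic acetyl-CoA from citrate (chr11:100476352-100528000), was the most abundant of the 32 genes in CP CML per transcript length, at 66 RPKM. It had 288.9, 300.6 and 330.6 CPM in the lowest, median and highest CP CML mouse and 242.8, 256.4 and 267.7 CPM in BC CML, with no overlap (log2 fold change -0.24, SE 0.04, adjusted p = 1.9e-05). Fasn, the fatty acid synthase, was lower (255.3 to 289.0 CPM in CP CML, 222.5 to 265.7 CPM in BC CML, -0.18, SE 0.05, adjusted p = 0.00242). Elovl6, which lengthens palmitate to stearate, was lower by a like amount (-0.21, SE 0.06, adjusted p = 0.00578), with 3 of 6 BC CML mice below every CP CML mouse. Acaca, the carboxylase that makes malonyl-CoA, had an estimate of 0.13 (95% interval -0.01 to 0.26, adjusted p = 0.0889) and passed the threshold without BC CML mouse 2 (0.16, adjusted p = 0.0471) or mouse 6 (0.16, adjusted p = 0.0408).

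SCD1 and SCD2 are the stearoyl-CoA desaturases that place a double bond in saturated fatty acids and make oleate and palmitoleate. Scd2 (chr19:44293676-44306862) had 88.7, 102.4 and 129.7 CPM in the lowest, median and highest CP CML mouse and 341.7, 396.1 and 477.4 CPM in BC CML, which is 3.69 times the mean level. The log2 fold change of 1.88 (SE 0.09, 95% interval 1.69 to 2.07, adjusted p = 4.1e-11) had the lowest p among the 32 genes, and the gap between the groups exceeded the range within either. Per transcript length Scd2 went from the fifth to the most abundant of the 32 genes, from 19.9 RPKM in CP CML to 73.5 RPKM in BC CML. Scd1 (chr19:44394450-44407709) had 6.59, 10.6 and 24.9 CPM in CP CML and 39.7, 75.7 and 166.6 CPM in BC CML, again with no overlap. The log2 fold change of 2.71 (SE 0.38, 95% interval 1.89 to 3.53, adjusted p = 3.4e-05) was the largest of the set and carried the widest interval, as the level varied among BC CML mice from 39.7 to 166.6 CPM. Scd1 rose in rank from 28 to 7, from 2.74 to 17.9 RPKM.

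**Figure D4:**
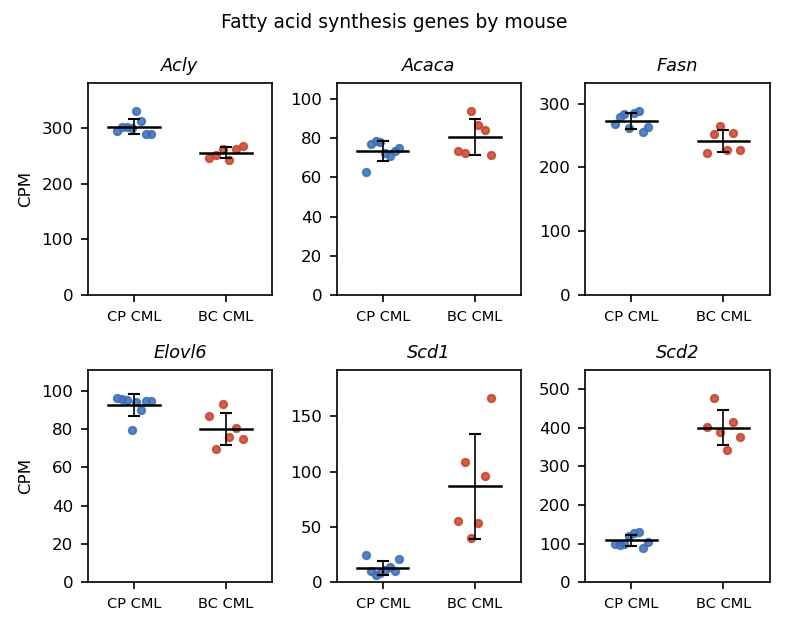
Normalized read counts (CPM) of the 6 fatty acid synthesis genes are shown with 1 point per mouse, the mean (line) and SD (bars) of CP CML (n = 8) and BC CML (n = 6). Acly, Fasn and Elovl6 are lower in BC CML by at most 0.24 on the log2 scale, whereas all BC CML mice lie above all CP CML mice for Scd1 and Scd2.

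Scd1 and Scd2 did not vary alike among mice. Scd1 followed the B cell markers: in BC CML the order of the 6 mice by Scd1 (mice 3, 4, 1, 5, 2 and 6, from 39.7 to 166.6 CPM) was also their order by the summed level of 7 B cell genes (from 99.8 to 490.7 CPM). In CP CML the highest Scd1 was in mice 1 and 8 (24.9 and 21 CPM), which had the highest B cell sums (174.0 and 153.8 CPM). The ratio of Scd1 to this sum was 0.106 to 0.143 in CP CML and 0.337 to 0.397 in BC CML, so it varied little among mice of a group and differed between groups with no overlap, by 2.75 times in the median. In these bulk counts, Scd1 reads from T cells cannot be told apart from Scd1 reads from B cells within the sorted samples, so neither the Scd1 levels nor its fold change can be assigned to T cells alone. The ratio of Scd2 to the same sum varied from 0.572 to 1.7 in CP CML and from 0.765 to 3.9 in BC CML. When the log2 of the B cell sum was added to the fit as a covariate, the log2 fold change of Scd1 was 1.47 (SE 0.09, adjusted p = 5.48e-10) and that of Scd2 was 1.83 (SE 0.12, adjusted p = 1.44e-08). With the summed myeloid markers as the covariate they were 1.48 (SE 0.53, adjusted p = 0.0401) and 1.98 (SE 0.15, adjusted p = 1.26e-07). The myeloid sums of the groups did not overlap, so that this covariate shares much of its variation with the genotype. The ratio and these fits were chosen after the values had been seen.

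**Figure D5:**
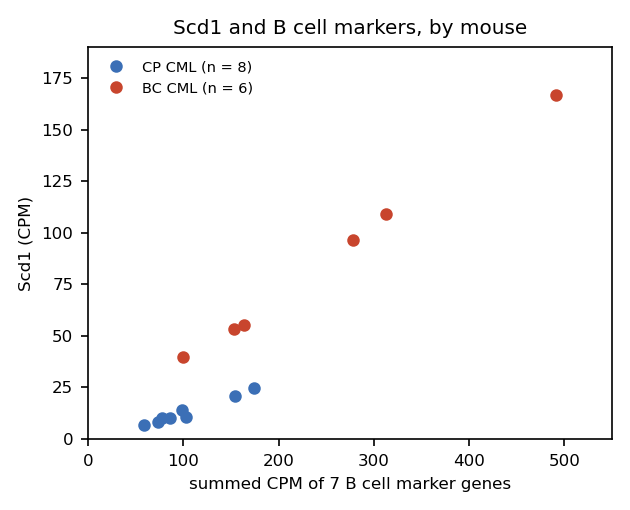
Each point is a mouse, with the summed CPM of 7 B cell marker genes on the horizontal axis and the CPM of Scd1 on the vertical axis, for CP CML (n = 8) and BC CML (n = 6). Within each group Scd1 is higher in mice with a higher B cell sum, except between CP CML mice 5 and 6, and the BC CML mice lie higher at a like sum.

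All 10 genes whose groups did not overlap stayed past the threshold in both covariate fits. They were picked for separation in the same mice, so this adds no independent support. The like share among all genes without overlap was not computed. Of the 23 genes called, 17 were called with the B cell covariate and 14 with the myeloid covariate, while the calls over all genes tested went from 7986 to 6461 and 5381. The B cell covariate also brought 3 genes past the threshold, Acaca (0.30, adjusted p = 0.000811), Cyp51 (-0.27, adjusted p = 0.017) and Fdps (-0.34, adjusted p = 0.0325), so that it called 20 of the 32. Srebf2 (-0.59 and -0.54 with the B cell and myeloid covariate), Insig1 (-0.66 and -0.66), Insig2 (0.58 and 0.50), Stard4 (-0.59 and -0.52), Hsd17b7 (-0.57 and -0.68), Dhcr7 (-0.39 and -0.28) and Abcg1 (0.78 and 0.82) were called in both. Abca1 was called with the B cell covariate (0.79, adjusted p = 0.00893) but not with the myeloid covariate (0.54, adjusted p = 0.133). With the B cell covariate 6 genes lost their calls. The estimates of Srebf1 (-0.09, adjusted p = 0.129, without it -0.17) and Scap (-0.08, adjusted p = 0.159, without it -0.17) were nearer to 0, as were those of Elovl6 (-0.13, without it -0.21) and Fasn (-0.14, without it -0.18), whereas Mvd (0.27, without it 0.27) and Tm7sf2 (-0.39, without it -0.36) kept theirs with a larger error. With the myeloid covariate the same 6 genes lost their calls together with Abca1, Acat2 and Mvk. The estimates were then no smaller than without it for Acat2 (0.28), Elovl6 (-0.25) and Mvd (0.27), and were -0.16 for Fasn, -0.12 for Srebf1, -0.13 for Scap, -0.28 for Tm7sf2 and -0.36 for Mvk.

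The desaturase genes lie in a cluster of 204 kb on chromosome 19 with Scd3 and Scd4. Scd4, which was sparse, was higher as well (0.648 to 1.66 CPM in CP CML, 2.37 to 4.99 CPM in BC CML, log2 fold change 1.68, SE 0.21, adjusted p = 2.2e-06), and Scd3 had at most 2 reads in any mouse. Genes of other families within 250 kb of the cluster changed by less and in both directions. These were Erlin1 (0.49), Ndufb8 (0.29), Chuk (-0.03, adjusted p = 0.632), Hif1an (-0.20), Cwf19l1 (-0.22), Sec31b (-0.38) and Bloc1s2 (-0.40). Scd1 and Scd2 are similar in sequence, but only 2.62% and 0.878% of the read-length stretches of their longest transcripts occur in another gene. The same share was 75.6% for Fdps, 42.7% for Acaca, 35.1% for Acat2, 20% for Idi1 and at most 2.67% for the other 28 genes. The levels of Fdps, Acaca, Acat2 and Idi1 are therefore the uncertain ones. Reads shared with near-identical copies such as Acat3 may have been left uncounted or misplaced. Stretches were compared singly, although reads were paired. Exons overlapped those of another annotated gene over at least 9.22% of their bases in Fdps, Fdft1, Scap, Hmgcs1, Tm7sf2 and Idi1, and the strand setting of the counting is not given in the sources used here.

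Levels per transcript length spanned from 2.49 RPKM (Hsd17b7) to 66 RPKM (Acly) in CP CML and from 1.68 RPKM (Hsd17b7) to 73.5 RPKM (Scd2) in BC CML. The SREBP control genes stood above most enzymes of the sterol pathway, with Srebf2 at 32.4 and 23 RPKM, Scap at 22.2 and 19.7 RPKM and Srebf1 at 19.1 and 17 RPKM in CP CML and BC CML. Among sterol enzymes the most abundant were Ebp, the sterol isomerase (16.9 and 16.1 RPKM), and Sc5d, the C5 desaturase (16.6 and 15.9 RPKM). Neither of these changed past the threshold.

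Other genes of the same pathways were taken from a list of 67 found in the table, of which 58 were tested. Of these, 25 were higher, 15 lower and 18 not past the test, with a median log2 fold change of 0.04, and in 24 the groups did not overlap. The shares called (69%) and not overlapping (41.4%) were near the 65.2% and 36.9% of all genes tested. Among 6 further sterol synthesis genes 4 were lower and 1 was higher. Lbr, the lamin B receptor that also has sterol C14 reductase activity, was lower (-0.28, SE 0.03, adjusted p = 1.5e-06), and Cyb5r3, a cytochrome b5 reductase that supplies electrons to desaturases, was higher (0.80, SE 0.07, adjusted p = 3.4e-08).

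Genes that handle cholesterol after synthesis or uptake changed in both directions. The 3 cholesterol ester genes were all higher, led by Soat2, an acyltransferase that esterifies cholesterol, with 6.35, 8.72 and 10.5 CPM in CP CML and 19.4, 28.9 and 37.3 CPM in BC CML (log2 fold change 1.70, SE 0.13, adjusted p = 5.4e-09). In sterol transfer 5 of 6 genes were higher and 1 did not pass the test, and the higher genes included Gramd1b, a carrier from the plasma membrane to the endoplasmic reticulum (0.53, SE 0.05, adjusted p = 2.1e-08). Of the lysosomal route, Npc1, the membrane transporter, was higher (0.52, SE 0.05, adjusted p = 2.7e-08), whereas its soluble partner Npc2 (-0.65, SE 0.05, adjusted p = 5.2e-09) and the acid lipase Lipa (-0.56, SE 0.04, adjusted p = 5.9e-09) were lower, and in all 3 the groups did not overlap.

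LXR-related genes did not share the direction of Abca1 and Abcg1, with 3 of 7 tested higher and 3 lower. Smpdl3a, a phosphodiesterase gene induced by LXR, was lower with no overlap (-0.63, SE 0.07, adjusted p = 7.5e-07). Apoe and the 2 receptor genes were named after their values were seen. Apoe was higher (29.5, 35.1 and 47 CPM in CP CML, 48.2, 138.1 and 232.2 CPM in BC CML, 1.86, SE 0.29, adjusted p = 8.2e-05). Nr1h3, which encodes LXRα and was sparse, was higher (2.51 to 4.32 CPM and 3.55 to 9.72 CPM, 0.89, SE 0.19, adjusted p = 5.5e-04), and Nr1h2, which encodes LXRβ, was lower (71.2 to 84.5 CPM and 58.9 to 67.9 CPM, -0.27, SE 0.04, adjusted p = 3.1e-05). Apoe and Nr1h3 are also expressed by macrophages, and the part of the higher myeloid markers in these values was not tested.

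In SREBP processing and turnover 5 of 9 genes were higher and 1 was lower. Among 8 fatty acid supply genes tested, 2 were lower and 6 did not pass the test. Acacb, the mitochondrial acetyl-CoA carboxylase, was lower from 4.09, 5.73 and 7 CPM to 1.36, 1.84 and 2.87 CPM (-1.53, SE 0.18, adjusted p = 6.6e-07). The elongation and desaturation genes were higher in 5 of 9 and lower in 2. Elovl7, an elongase of long saturated fatty acids, was higher (6.16 to 10.6 CPM and 15.7 to 23.3 CPM, 1.30, SE 0.12, adjusted p = 2.7e-08), in contrast to Elovl6, and Tecr, which completes each elongation cycle, was higher by less (0.31, SE 0.04, adjusted p = 9.1e-07). Of 4 acyl-CoA synthetase genes tested, 2 were higher. Acsl4, which activates polyunsaturated fatty acids such as arachidonate, had 99, 104.9 and 109.9 CPM in CP CML and 148.5, 153.0 and 167.7 CPM in BC CML (0.56, SE 0.04, adjusted p = 5.0e-10), with no overlap.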

How the data were processed

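Spleen T cell RNA of 8 CP CML and 6 BC CML mice was sequenced in paired reads of 101 bases. Per the labels and the study's methods, the authors trimmed reads with Trimmomatic and FASTP, aligned them to mm10 with STAR 2.6.0 and counted them per gene with HTSeq 0.11.1. They deposited raw counts with gene positions and lengths, and the annotation used for counting is not given in the sources used here. Columns were assigned to mice from their names.

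Counts were analysed with edgeR 4.0.16 in R 4.3.3 (TMM, filterByExpr, glmQLFit with robust estimation and glmQLFTest, no covariate, all 14 mice, Benjamini-Hochberg adjustment over 12248 genes, threshold 0.05). The likelihood ratio test of edgeR, which the study used, and DESeq2 1.42.0 were alternatives. The SE was the log2 fold change divided by the square root of F. Libraries held 15703702 to 19914531 reads. CPM used TMM-scaled library sizes, and RPKM divided CPM by the deposited length. Fits were tested on simulated data. Intervals include differences between mice.

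The genes and lists were chosen with earlier results of these data known. Values by mouse were given for called genes whose groups did not overlap and for Srebf1, Srebf2, Insig1, Insig2, Abca1 and Abcg1. Of the other pathway genes, the 3 of each role with the lowest p among those called were named, at most 14 in all. Replicates of a group differed by more than sampling noise (chi-square per degree of freedom of at least 3.08). Sequences came from RefSeq and GENCODE vM21, both on the genome build of mm10.

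Some genes of these lists are not reported here by name.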

Additional observations from a re-analysis of the deposited data

Results flagged for a closer look

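In 6 of 92 groups examined (46 genes in each group of mice) a mouse lay far from the others of its group by Dixon's criterion, which chance gives in about 1 in 20 groups, or 4.6 of 92. In BC CML, mouse 6 had the highest Hmgcs1 (61.3 CPM, the next mouse 48.7) and the highest Acsl4 (167.7 CPM, the next 154.5), and mouse 4 had the lowest Idi1 (4.65 CPM, the next 6.72). In CP CML, mouse 4 had the lowest Elovl6 (79.4 CPM, the next 89.8), mouse 1 the highest Smpdl3a (105.4 CPM, the next 95.1) and mouse 8 the highest Elovl7 (10.6 CPM, the next 7.82). Of these genes, the side of the threshold depended on a single mouse only in Hmgcs1, which was called without BC CML mouse 6 and not without BC CML mouse 4.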

How the results depend on the processing

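Under the likelihood ratio test, DESeq2, RLE factors, library size alone, no filter and a stricter filter (over 1 CPM in 6 or more mice), the same 23 of 32 genes were called. Scaling moved the median log2 fold change of all genes to at most -0.00264 and at least -0.0183. With each of the 14 mice left out in turn, 21 to 25 genes were called, 8 to 9 higher and 13 to 16 lower. Among other pathway genes 37 to 41 were called, 24 to 26 higher and 13 to 16 lower. Over the other alternatives, 28 (myeloid covariate) to 43 (no filter) of them were called, 17 to 28 higher and 11 to 15 lower. The groups share replicate numbers 1 to 6 in their titles but are different animals, and same-numbered mice deviated together in 2 of 6 pairs only (correlations of -0.273 to 0.356), so the numbers were not taken as pairs. With the replicate block, 21 of the same 23 genes were called, and Hmgcs1 (-0.19, adjusted p = 0.0589) and Msmo1 (-0.19, adjusted p = 0.0828) were not. With the myeloid covariate, added after seeing the data, 14 genes were called, 5 higher and 9 lower. Small estimates changed sign in Fdft1 (-0.09 with the B cell covariate, -0.05 with the myeloid covariate, -0.01 to 0.07 with a mouse left out), Nsdhl (0.02 with the myeloid covariate) and Cyp51 (-0.11 to 0.03 with a mouse left out), and the cause was not tested. Depth limits genes such as Mvk, with 64 to 167 reads per mouse.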
